A study of Mus musculus with 18 samples.

Results

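The genes of cholesterol synthesis, uptake and efflux were taken as a list of 32 gene symbols, and all 32 were found among the 19518 genes measured in mouse kidney. They comprise 7 genes of the mevalonate steps, 11 of the squalene and sterol steps and 4 that encode or control the transcription factor SREBP2. The others are the 2 liver X receptors (LXR) and 8 genes of uptake, trafficking, esterification and efflux. The mice were ICR, an outbred stock, aged 10 weeks, and kidney RNA of 6 groups was sequenced in 3 libraries each. The groups were control, AOS at 10 mg/kg, a high fat diet (HFD), HFD with AOS at 10 mg/kg (HFD+AOS), HFD with a faecal microbiota transplantation (FMT) that the label names after AOS at that dose, here HFD+AOS-FMT, and HFD with a transplantation named after control, here HFD+control-FMT. The labels do not spell AOS out, and they do not describe the FMT donors. The design asks how AOS and the transplants bear on the kidney of mice on HFD. Whether the libraries of a group came from separate animals is not in the labels, and every p-value below therefore reflects the spread among libraries, which could be technical.

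Cells make cholesterol from acetyl-CoA through mevalonate, isoprenoid units, squalene and a series of sterol intermediates. When sterols in the endoplasmic reticulum are low, SCAP carries SREBP2 to the Golgi, where it is cleaved and released to switch on the genes of synthesis and uptake; INSIG proteins hold the complex back when sterols are plentiful. LXR receptors bind oxysterols and switch on efflux genes such as Abca1 and Abcg1, so the arms usually move in opposite directions when the sterol content of a cell changes.

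Values are normalized signals per gene with no stated unit, and they behave as if scaled to transcript length and depth. A difference below is a difference of group means of log2(signal + 1), which understates the change of low genes. It is given with its standard error (SE) and with a p from limma, adjusted by the Benjamini-Hochberg method over the 12031 genes tested. A gene rose, fell or was called where that adjusted p was under 0.05. All 32 members passed the filter on low values, a signal of at least 1 in 3 libraries. The number of reads is unknown; by the steps of low values, control replicates 3 and 1 had relative depths of 0.868 and 0.919 against 1.0 in the other 16, as far as values with 2 decimals resolve it. Exons of 10 members overlap another annotated gene, 7 of them on the opposite strand, and whether counting used strand is not known here.

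Every library carried all 12 kidney markers, but control replicate 3 stood apart. Its 10 adrenal cortex markers summed to 989, against 2.43 to 8.13 in the other 17 libraries, and the proximal tubule gene Kap took 2.48% of its signal against 17.2% to 22.9%. Its macrophage marker sum was 234, against 78.7 to 147 elsewhere. Transcripts of testis germ cells (9 markers, leaving out Smcp, which is at 11.7 or above in every library) summed to 27.9 to 42.5 in 5 libraries, the 3 of control and 2 of HFD, and to 0.080 to 0.55 in the other 13. The 13 clock genes, which vary with time of day, summed to 295 to 327 in HFD+AOS and 282 to 331 in HFD+AOS-FMT. They summed to 168 to 241 in HFD+control-FMT, 129 to 159 in HFD and 155 to 218 in AOS. In the 3 control libraries the sums were 121, 132 and 339. The sum pools genes that lay in opposite directions between HFD and HFD+AOS, such as Arntl and Dbp. Sampling times are not in the labels. The part of these features in the results was not tested, except where values without control replicate 3 or with a term for the germ cell transcripts are given. In whole tissue, fewer cells of a type and less RNA per cell cannot be told apart.

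The members spanned a wide range of levels. By median over the 18 libraries, the mevalonate pathway gene Hmgcs1 was highest at 187, followed by Apoe at 112 and Cyp51 at 89.7, and the efflux transporter gene Abcg1 was lowest at 0.93. Control replicate 3 was the highest of the 18 libraries for 17 of the 32 members and the lowest for 6, so that library bears on nearly every comparison with control.

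**Figure D1:**
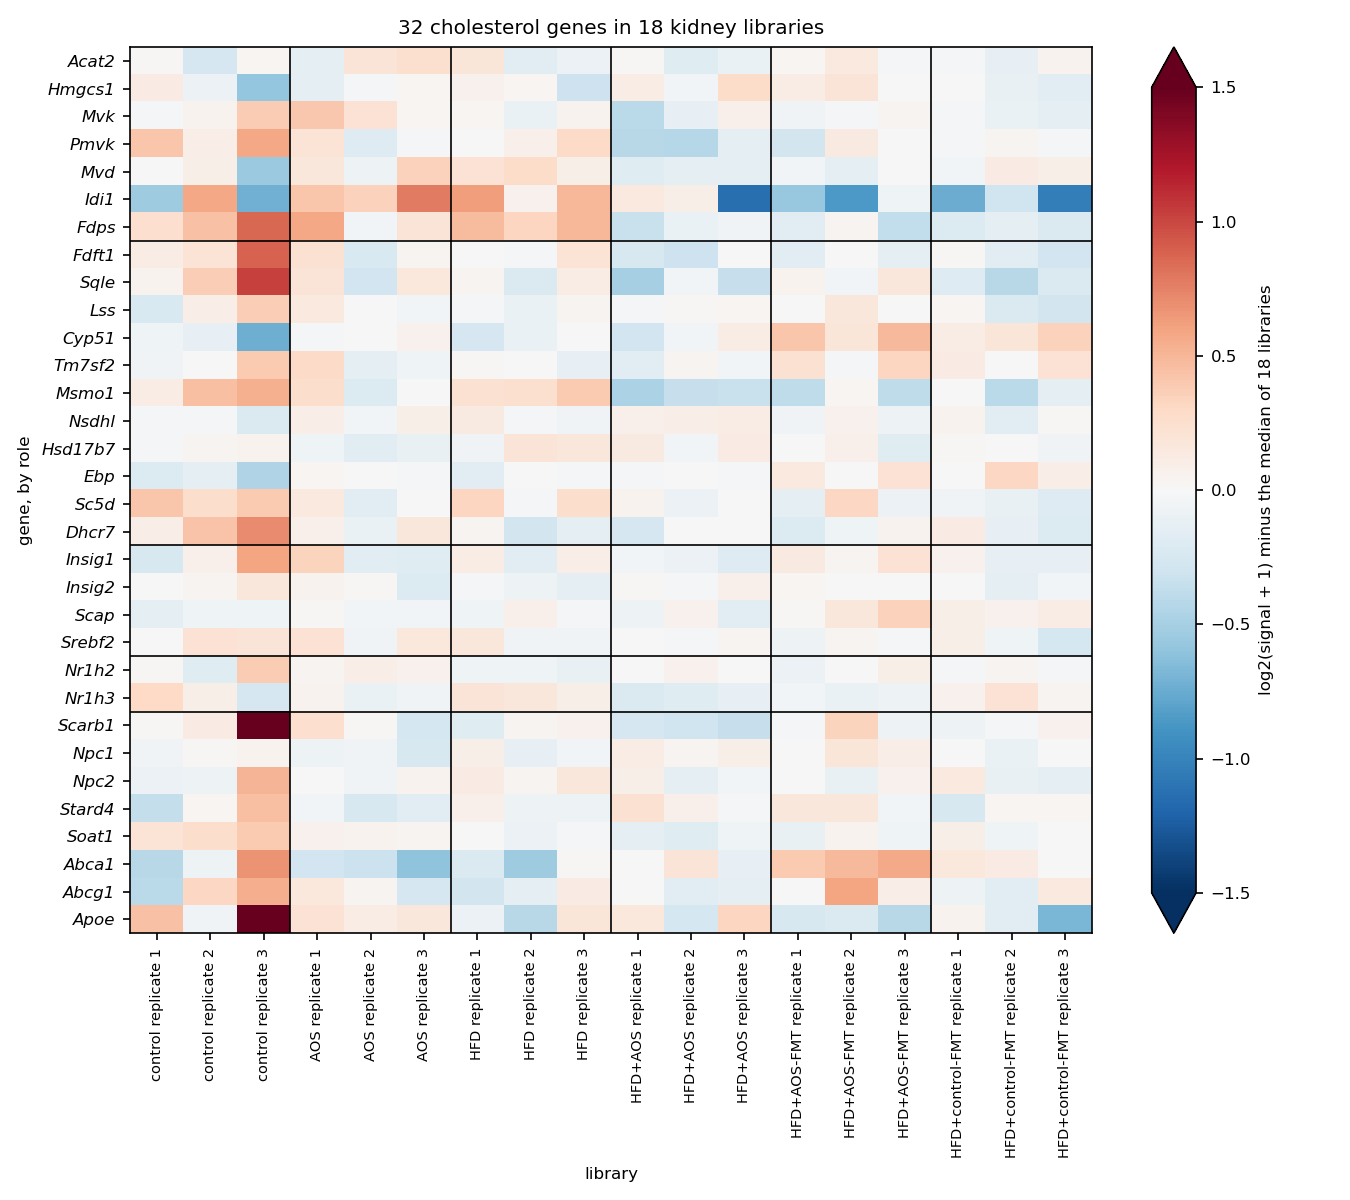
Log2(signal + 1) of the 32 members (y axis, in order of role, with lines between the role groups) in each of the 18 libraries (x axis, with lines between the groups), as the difference from each gene's median over libraries; colours end at 1.5, which Scarb1 and Apoe in control replicate 3 exceed. Control replicate 3 is the highest library for 17 members and the lowest for 6.

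Promoters are shown for the best measured gene of the mevalonate steps and for 3 sterol genes whose levels the comparisons below turn on. The windows run from 250 bases before to 50 after the annotated start, from RefSeq on GRCm38.p6, 5′ to 3′ on the strand of the gene. Capitals mark, on either strand, matches to 4 motifs: TCACNCCAC, a form of the sterol regulatory element bound by SREBP; the CCAAT box; the GC box, whose letters searched were GGGCGG; and the E-box, searched as CACGTG. No motif contains another. The windows are Hmgcs1 at chr13:119690101-119690400 (plus strand), Msmo1 at chr8:64733529-64733828 (minus strand), Cyp51 at chr5:4104648-4104947 (minus strand) and Ebp at chrX:8193463-8193762 (minus strand).
Hmgcs1: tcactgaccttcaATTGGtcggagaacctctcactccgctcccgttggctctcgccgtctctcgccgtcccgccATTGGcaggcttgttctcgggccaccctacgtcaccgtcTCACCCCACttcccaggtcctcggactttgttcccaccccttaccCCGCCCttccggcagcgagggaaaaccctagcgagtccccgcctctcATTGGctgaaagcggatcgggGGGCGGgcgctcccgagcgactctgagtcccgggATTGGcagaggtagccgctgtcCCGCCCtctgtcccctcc
Msmo1: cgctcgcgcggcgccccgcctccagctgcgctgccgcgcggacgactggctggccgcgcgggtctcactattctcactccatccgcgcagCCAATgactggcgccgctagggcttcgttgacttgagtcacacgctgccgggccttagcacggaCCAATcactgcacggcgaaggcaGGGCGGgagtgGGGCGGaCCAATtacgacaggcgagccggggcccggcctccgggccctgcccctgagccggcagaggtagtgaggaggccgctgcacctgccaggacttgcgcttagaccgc
Cyp51: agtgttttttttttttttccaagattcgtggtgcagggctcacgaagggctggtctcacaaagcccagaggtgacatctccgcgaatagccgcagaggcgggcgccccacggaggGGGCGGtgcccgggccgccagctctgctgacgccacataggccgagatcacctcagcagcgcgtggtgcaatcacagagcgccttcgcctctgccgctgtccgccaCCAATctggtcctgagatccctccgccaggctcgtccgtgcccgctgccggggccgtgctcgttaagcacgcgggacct
Ebp: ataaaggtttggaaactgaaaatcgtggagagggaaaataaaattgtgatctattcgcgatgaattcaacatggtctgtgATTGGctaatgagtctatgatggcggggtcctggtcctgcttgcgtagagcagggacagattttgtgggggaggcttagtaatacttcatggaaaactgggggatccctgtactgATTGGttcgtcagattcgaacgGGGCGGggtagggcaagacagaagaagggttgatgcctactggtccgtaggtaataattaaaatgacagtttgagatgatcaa

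Hmgcs1 held the sterol regulatory letters 1 time, beside 4 CCAAT matches and 3 GC boxes. Msmo1 held 3 CCAAT matches and 2 GC boxes, Cyp51 held 1 of each, and Ebp held 2 CCAAT matches and 1 GC box. Promoter windows were found for 25 of the 32 members, 34 windows in all. Among these, CCAAT stood in 19 windows, against 37.4% of all 32851 windows in the table. GGGCGG stood in 24 windows, against 35.7% of all, CACGTG in 7, against 7.15%, and TCACNCCAC in 1, against 1.24%. A match describes the letters of the window and is not a binding site.

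In the mevalonate steps, Fdps lay at a lower level in the 3 groups that received AOS or a transplant on HFD, but was not called against HFD. Fdps encodes farnesyl diphosphate synthase, which joins isoprenoid units into the precursor of squalene. Fdps lay at 18.6, 21.3 and 28.9 in control, at 23.5, 14.98 and 17.9 in AOS and at 21.9, 19.5 and 22.2 in HFD. It lay at 12, 14.3 and 14.9 in HFD+AOS, at 13.7, 15.9 and 11.7 in HFD+AOS-FMT and at 13.3, 13.9 and 13.1 in HFD+control-FMT. Each of the 9 libraries of these last groups was below each of the 3 HFD libraries. The 3 comparisons share those HFD libraries, and Fdps passed in none of them (adjusted p = 0.0921, 0.126 and 0.959 by limma). The share of all genes with the same separation was not counted, here or for the other members below whose groups did not overlap. Fdps (chr3:89093588-89101959, minus strand, GRCm38) shares exon sequence with the annotated gene Gm43738 on the same strand, so its reads may be split.

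Idi1, the isomerase that makes the reactive isoprenoid unit, varied widely within groups. Idi1 lay at 16.2, 36.5 and 14.2 in control, at 32.4, 30.8 and 41.9 in AOS and at 37.7, 25.2 and 34.3 in HFD. Its level was at 26.7, 25.7 and 10.4 in HFD+AOS, at 15.9, 12.8 and 22.9 in HFD+AOS-FMT and at 13.9, 19.3 and 11.2 in HFD+control-FMT. The transplant libraries were all below the HFD libraries, while HFD+AOS overlapped HFD, and control by itself spanned 14.2 to 36.5.

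Pmvk and Mvd encode the kinase and the decarboxylase late in the mevalonate steps. Pmvk stood at 11.2, 8.78 and 12.7 in control, at 9.55, 7.01 and 7.94 in AOS and at 8.17, 8.67 and 10.1 in HFD. Pmvk then stood at 5.85, 5.78 and 7.25 in HFD+AOS, at 6.56, 9.07 and 8.11 in HFD+AOS-FMT and at 8.04, 8.44 and 8.05 in HFD+control-FMT. Mvd stood at 41.4, 44.3 and 27.8 in control, at 46.7, 39.3 and 52.9 in AOS and at 48.5, 50.4 and 44.2 in HFD. Mvd then stood at 36.4, 37.4 and 37.2 in HFD+AOS, at 40.2, 37.5 and 41.6 in HFD+AOS-FMT and at 40.2, 45.1 and 44.3 in HFD+control-FMT. For both genes HFD+AOS was below HFD without overlap, but neither passed (Pmvk -0.46 and Mvd -0.36, adjusted p = 0.133 and 0.227 by limma). For Mvd the lowest of the 18 libraries was control replicate 3.

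Hmgcs1, the cytosolic synthase upstream of mevalonate, had the highest level of the synthesis genes. Hmgcs1 lay at 203, 176 and 125 in control, at 171, 183 and 191 in AOS and at 196, 191 and 151 in HFD. It was at 202, 182 and 226 in HFD+AOS, at 202, 215 and 188 in HFD+AOS-FMT and at 186, 173 and 167 in HFD+control-FMT. Its groups overlapped except that HFD+AOS-FMT was above HFD+control-FMT, a difference that did not pass (0.20, SE 0.14, adjusted p = 0.814). Acat2, which condenses acetyl-CoA, ranged from 47.9 to 67.8 and the mevalonate kinase gene Mvk from 4.56 to 8.67 over the 18 libraries.

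In the squalene and sterol steps, Msmo1 and Cyp51 lay apart from HFD in opposite directions in the transplant groups, although their enzymes belong to the same series of steps; in HFD+AOS, Cyp51 overlapped HFD. Msmo1 (chr8:64718139-64733792, minus strand) encodes a methylsterol oxidase that takes part in removal of methyl groups. Msmo1 lay at 26.3, 33.7 and 35.7 in control, at 29.4, 20.9 and 24.2 in AOS and at 28.8, 29.0 and 32.3 in HFD. It then lay at 17.2, 18.9 and 19.1 in HFD+AOS, at 18.4, 24.9 and 18.5 in HFD+AOS-FMT and at 24.5, 18.2 and 22.0 in HFD+control-FMT. As for Fdps, each of the 9 libraries given AOS or a transplant on HFD was below each HFD library. These groups are compared with the same HFD libraries, and Msmo1 was called in HFD+AOS alone among them.

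Cyp51 encodes lanosterol demethylase, which acts earlier than Msmo1 in that series. Cyp51 lay at 85.7, 82.4 and 53.7 in control, at 87.7, 89.7 and 93.8 in AOS and at 75.3, 83.7 and 89.6 in HFD. Its level was at 73.5, 87.3 and 96.8 in HFD+AOS, at 120.1, 102 and 126 in HFD+AOS-FMT and at 96.8, 102 and 114 in HFD+control-FMT. The 6 transplant libraries were the highest of the 18, the lowest of them at 96.84 and HFD+AOS replicate 3 next at 96.81. Cyp51 (chr5:4081145-4104746, minus strand) overlaps exons of Akap9 on the opposite strand. Akap9 itself had a difference of 0.11 (SE 0.064, adjusted p = 0.371) between HFD+AOS-FMT and control, where Cyp51 had 0.67, and of 0.15 (SE 0.064, adjusted p = 0.339) between HFD+AOS-FMT and HFD, where Cyp51 had 0.48.

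Ebp (chrX:8185329-8193512, minus strand) encodes the sterol isomerase that shifts the double bond of the B ring. Ebp lay at 49.5, 52.0 and 41.8 in control, at 58.4, 57.3 and 56.8 in AOS and at 51.1, 57.7 and 56.2 in HFD. It stood at 56.9, 57.7 and 56.3 in HFD+AOS, at 63.4, 57.6 and 66.9 in HFD+AOS-FMT and at 57.8, 71.3 and 61.7 in HFD+control-FMT. The 3 control libraries had 3 of the 4 lowest values of all 18, and the other was HFD replicate 1. Sc5d, a desaturase gene, and Dhcr7, which encodes a late reductase, had high values in control. Sc5d was at 7.5, 6.62 and 7.35 in control, at 6.04, 4.70 and 5.38 in AOS and at 6.96, 5.21 and 6.64 in HFD. Sc5d was at 5.58, 4.96 and 5.33 in HFD+AOS, at 4.76, 6.89 and 5.0 in HFD+AOS-FMT and at 5.12, 4.88 and 4.54 in HFD+control-FMT. Dhcr7 was at 13.3, 16.8 and 20.7 in control, at 13.04, 11.5 and 14.0 in AOS and at 12.6, 9.98 and 11.0 in HFD. Dhcr7 was at 10.2, 12.4 and 12.2 in HFD+AOS, at 10.5, 11.7 and 12.8 in HFD+AOS-FMT and at 13.5, 11.3 and 10.5 in HFD+control-FMT. Control held the highest Dhcr7 values with the exceptions that AOS replicate 3 and HFD+control-FMT replicate 1 exceeded control replicate 1.

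Sqle encodes squalene epoxidase. Sqle lay at 18.3, 22.9 and 36.8 in control, at 20.2, 14.2 and 19.8 in AOS and at 18.2, 15.1 and 19.1 in HFD. Sqle was next at 12.2, 17.1 and 13.6 in HFD+AOS, at 18.3, 17.1 and 19.9 in HFD+AOS-FMT and at 15.3, 12.95 and 14.97 in HFD+control-FMT. Control replicate 3 was 1.61 times the highest other library for Sqle, and 1.64 times for Fdft1, the squalene synthase gene, at 14.1 against 5.57 to 8.60. Nsdhl ranged from 59.7 to 76.2, Hsd17b7 from 5.78 to 7.78, Tm7sf2 from 7.05 to 10.8 and the lanosterol synthase gene Lss from 2.48 to 4.44. Fdft1 overlaps Ctsb on the opposite strand, and in HFD+AOS-FMT against control Ctsb fell (-0.47, SE 0.11, adjusted p = 0.0395 by limma) where Fdft1 had -0.50 (adjusted p = 0.132). Tm7sf2 overlaps Vps51 on the same strand, so the values of both members are uncertain to that extent.

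**Figure D2:**
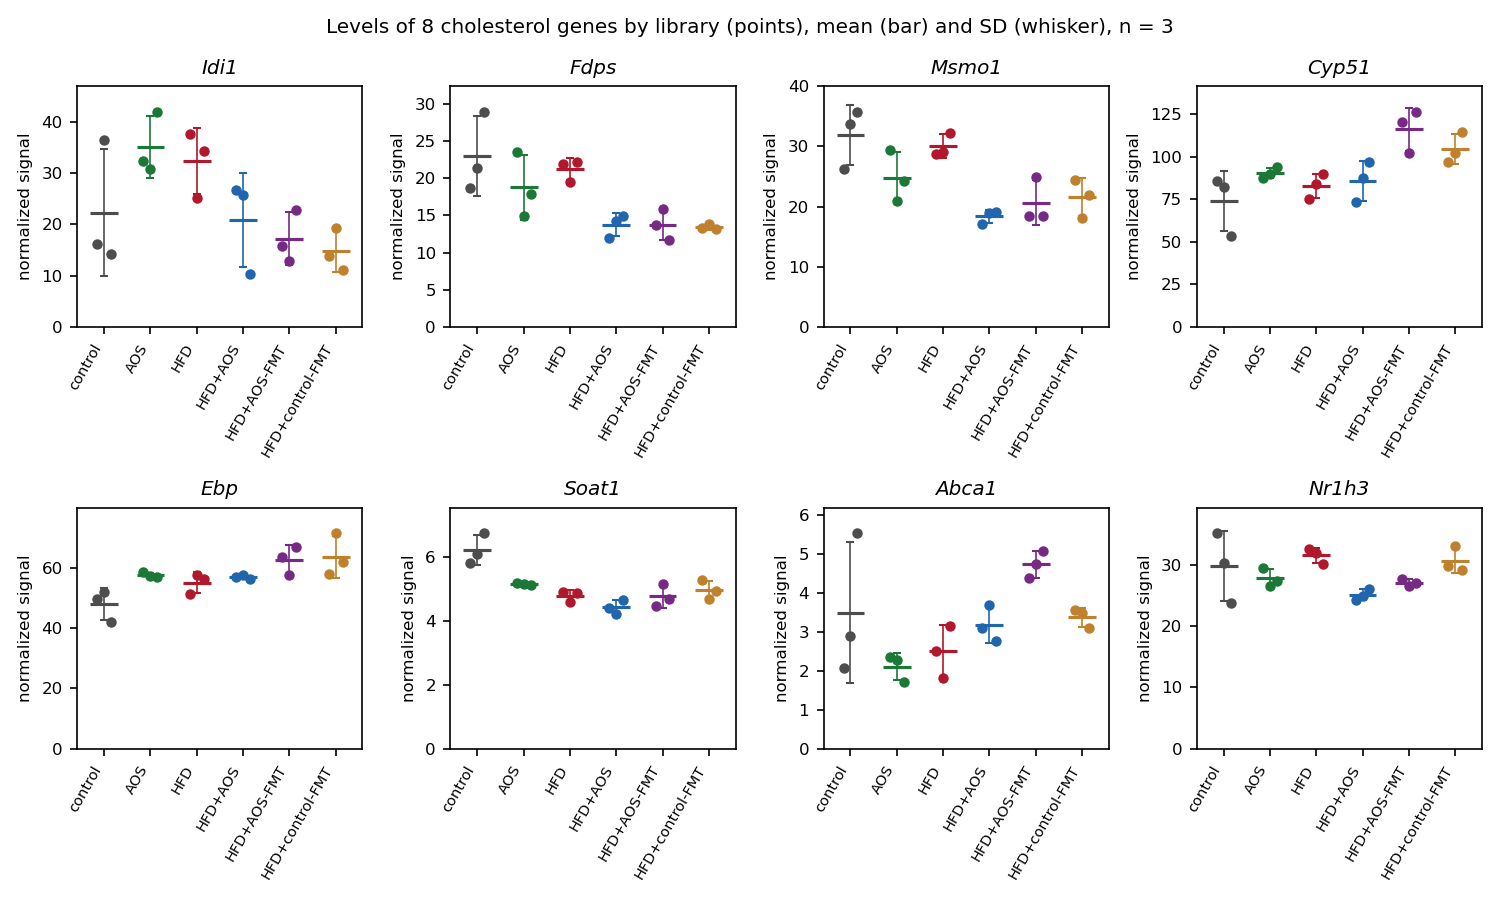
Normalized signal (y axis, from 0) of 8 members in each library (points), with the mean (bar) and SD (whisker) of the 3 libraries of each group (x axis). Fdps and Msmo1 are below every HFD library in HFD+AOS, HFD+AOS-FMT and HFD+control-FMT, Cyp51 is highest in the transplant groups, and control spreads widely for Abca1 and Idi1.

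Of the 4 genes that encode or control SREBP2, 0 were called in any contrast, where 0% to 2.32% of all genes were called. Under quantile normalization Scap passed in HFD+AOS-FMT against control, with 3.28% of all genes called. Scap, the escort of SREBP2, had the highest level of the 4. Scap lay at 20.9, 22.0 and 22.1 in control, at 23.4, 22.4 and 22.4 in AOS and at 22.0, 24.4 and 22.9 in HFD. It was at 22.0, 24.3 and 20.5 in HFD+AOS, at 23.5, 26.0 and 29.5 in HFD+AOS-FMT and at 24.7, 24.2 and 25.1 in HFD+control-FMT. Insig2, which retains that complex, stood at 15.5, 15.9 and 17.4 in control, at 15.2, 14.5 and 13.8 in HFD and between 13.2 and 16.3 in the other groups. Insig1 ranged from 12.0 to 22.2, with the highest value in control replicate 3, and Srebf2 itself from 13.3 to 19.0.

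Of the LXR receptors, Nr1h3 encodes LXR alpha and Nr1h2 LXR beta. Nr1h3 lay at 35.3, 30.5 and 23.9 in control, at 29.7, 26.6 and 27.4 in AOS and at 32.6, 32.1 and 30.3 in HFD. Nr1h3 lay at 24.4, 25.1 and 26.2 in HFD+AOS, at 27.8, 26.7 and 27.1 in HFD+AOS-FMT and at 29.9, 33.2 and 29.3 in HFD+control-FMT. HFD+AOS and HFD+AOS-FMT were both below HFD without overlap, and HFD+control-FMT was not. Neither difference passed (-0.32 and -0.21, adjusted p = 0.146 and 0.379 by limma). The difference between the transplants did not pass either (adjusted p = 0.766), and control alone spanned 23.9 to 35.3. Nr1h2 was at 52.5, 45.6 and 67.9 in control, at 53.6, 55.6 and 54.1 in AOS and at 49.7, 49.7 and 48.0 in HFD. Nr1h2 was at 51.7, 54.4 and 52.1 in HFD+AOS, at 49.0, 51.5 and 55.3 in HFD+AOS-FMT and at 51.4, 53.3 and 51.5 in HFD+control-FMT. Its highest value was in control replicate 3 and the other 17 libraries spanned 45.6 to 55.6.

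Among the genes of efflux and esterification, Abca1 (chr4:53030787-53159895, minus strand) encodes the transporter that loads cholesterol onto apolipoprotein A-I. Abca1 lay at 2.06, 2.88 and 5.52 in control, at 2.35, 2.26 and 1.70 in AOS and at 2.51, 1.82 and 3.15 in HFD. Abca1 lay at 3.09, 3.67 and 2.76 in HFD+AOS, at 4.38, 4.73 and 5.07 in HFD+AOS-FMT and at 3.55, 3.47 and 3.09 in HFD+control-FMT. HFD+AOS-FMT was above HFD and above HFD+control-FMT without overlap, but control replicate 3, at 5.52, was above all. Soat1 (chr1:156424525-156474331, minus strand) encodes the enzyme that esterifies cholesterol for storage. Soat1 lay at 5.82, 6.08 and 6.74 in control, at 5.19, 5.14 and 5.11 in AOS and at 4.90, 4.58 and 4.87 in HFD. Soat1 then lay at 4.41, 4.22 and 4.66 in HFD+AOS, at 4.46, 5.16 and 4.67 in HFD+AOS-FMT and at 5.27, 4.67 and 4.94 in HFD+control-FMT. The 3 control libraries were the highest of the 18.

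Npc1, which exports cholesterol from lysosomes, stood at 6.21, 6.34 and 5.48 in AOS and 7.26, 6.82 and 7.11 in HFD+AOS, and ranged from 5.98 to 7.68 in the other groups. Its partner Npc2 ranged from 28.8 to 45.5 and the sterol carrier gene Stard4 from 8.64 to 15.8, both highest in control replicate 3. Abcg1, at 0.46 to 1.92, lay near the filter on low values.

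Scarb1, the high density lipoprotein receptor gene, and Apoe, the apolipoprotein E gene, turned on control replicate 3. Scarb1 was at 44.1 there and at 2.96 to 5.36 in the other 17 libraries, a ratio of 8.22 to the highest of them. Apoe lay at 151, 107 and 437 in control, at 129.9, 120.1 and 126 in AOS and at 105, 82.9 and 126 in HFD. Apoe was at 125, 92.9 and 139 in HFD+AOS, at 94.3, 95.7 and 83.3 in HFD+AOS-FMT and at 116, 98.6 and 68.8 in HFD+control-FMT. Both genes are strongly expressed in the adrenal cortex, and Apoe in macrophages, and the marker sums of both cell types were highest in that library.

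HFD against control tests the diet. Of the 32 members 0 were called, against 0% of all genes. At an unadjusted p under 0.05, 2 were higher (Mvd and Ebp), against 2.93% of all genes, and 4 were lower (Sqle, Dhcr7, Soat1 and Apoe), against 14.5%. The smallest p belonged to Soat1, at 4.78 ± 0.18 (SD, n = 3) in HFD and 6.21 ± 0.47 in control (difference -0.32, SE 0.072, adjusted p = 0.137 by limma). Dhcr7 followed (-0.54, SE 0.14, adjusted p = 0.205), then Insig2 (-0.15, SE 0.073, adjusted p = 0.293) among members whose groups did not overlap. The median difference was -0.11 over the members and -0.10 over all genes, and without control replicate 3 it was -0.01 and -0.02. Under quantile normalization the median over all genes moved to 0.01, and the members at an unadjusted p under 0.05 were then 4 higher, against 8.07% of all genes, and 4 lower, against 6.8%. Without control replicate 3, Scarb1 went from -1.12 to -0.09, Apoe from -0.89 to -0.30 and Abca1 from -0.30 to 0.00, and Soat1 from -0.32 to -0.27.

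AOS against control tests AOS without HFD. Again 0 members were called, against 0.0332% of all genes. With no adjustment (p under 0.05), 2 were higher, against 2.56% of all genes, and 8 were lower, against 10.1%; under quantile normalization these were 2 (5.9% of all genes) and 2 (4.65%), and without control replicate 3 they were 2 (4.36%) and 3 (4.36%). Soat1 (-0.23, SE 0.072), Ebp (0.27, SE 0.088) and Sc5d (-0.36, SE 0.12) had the smallest p among members without overlap, with adjusted p = 0.345, 0.345 and 0.351 by limma. The difference had a median of -0.12 over the members and -0.09 over all genes, and both were -0.01 without control replicate 3. All 3 control libraries and none of AOS carried germ cell transcripts. With a term for these, the comparison passes through the HFD libraries on either side of that split. Soat1, Ebp and Sc5d then had differences of -0.26, 0.22 and -0.48.

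HFD+AOS against HFD tests AOS on the diet, and 1 member was called, against 0.823% of all genes. Msmo1 fell, from 30.0 ± 1.95 (SD, n = 3) in HFD to 18.4 ± 1.07 in HFD+AOS (difference -0.68, SE 0.15, adjusted p = 0.0467 by limma). Fdps was at 13.7 ± 1.54 against 21.2 ± 1.47 (-0.59, SE 0.16, adjusted p = 0.0921) and Pmvk at 6.29 ± 0.83 against 8.99 ± 1.02 (-0.46, SE 0.14, adjusted p = 0.133), and neither passed. Before adjustment, at p under 0.05, 0 members were higher, against 8.2% of all genes, and 5 were lower, against 6.86%; these were Msmo1, Fdps, Pmvk, Nr1h3 and Mvd. The median difference was -0.36 over the 7 mevalonate genes, -0.02 over the 11 sterol genes, -0.04 over all members and 0.01 over all genes. Over the mevalonate genes it was -0.17 in HFD+AOS-FMT against HFD and -0.12 in HFD+control-FMT against HFD. It was 0.04 over them in HFD against control and 0.14 in AOS against control.

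The call of Msmo1 was near the threshold. With 1 library left out at a time it remained without control replicate 1 or 3, AOS replicate 1, HFD+AOS-FMT replicate 2 or HFD+control-FMT replicate 2, and was lost without any of the other 13. It was also lost with the germ cell term, under which the comparison rests on HFD replicate 3 alone and the difference was -0.78 (adjusted p = 0.241). Without control replicate 3, which this comparison uses only for the shared spread, 5 members were called (Msmo1, Fdps, Mvd, Nr1h3 and Pmvk, all lower), while 6.84% of all genes were called. The clock gene sums of these groups do not overlap, and among the clock genes Arntl fell from a mean of 9.85 to 1.91 (difference -1.91, SE 0.39, adjusted p = 0.0399), and Dbp was at 78.3 against 5.60 and did not pass (3.73, SE 0.88, adjusted p = 0.0640). Adipose markers other than Pck1 summed to 99.6, 114 and 383 in HFD+AOS and 453, 221 and 621 in HFD. Pck1 went the other way, at 980, 885 and 874 in HFD+AOS and 556, 685 and 865 in HFD. With Pck1 the sums were 998 to 1257 in HFD+AOS and 906 to 1486 in HFD. The part of clock and adipose genes in these results was not tested.

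HFD+AOS-FMT against HFD tests the transplant labelled AOS. Here 0 members were called, against 0.175% of all genes. At an unadjusted p under 0.05, 3 were higher (Abca1, Cyp51 and Scap), against 8.63% of all genes, and 3 were lower (Fdps, Msmo1 and Idi1), against 4.63%; under quantile normalization these were 2 (6.66% of all genes) and 4 (6.83%). Fdps was at 13.8 ± 2.10 (SD, n = 3) against 21.2 ± 1.47 (-0.59, SE 0.16, adjusted p = 0.126 by limma) and Msmo1 at 20.6 ± 3.75 against 30.0 ± 1.95 (-0.53, SE 0.15, adjusted p = 0.128). Abca1 was at 4.73 ± 0.35 against 2.49 ± 0.67 (0.73, SE 0.21, adjusted p = 0.155), and Cyp51 at 116 ± 12.6 against 82.9 ± 7.16 (0.48, SE 0.15, adjusted p = 0.177). Without control replicate 3, Abca1, Cyp51, Fdps and Msmo1 were called (adjusted p = 0.00956, 0.0153, 0.0257 and 0.0446), while 4.89% of all genes were called. With the germ cell term the comparison rests on HFD replicate 3 alone. Abca1 then had a difference of 0.46, Cyp51 of 0.36, Fdps of -0.66 and Msmo1 of -0.64. The clock gene sums of these groups do not overlap either. The median difference was 0.07 over the members and 0.05 over all genes.

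HFD+control-FMT against HFD tests the control transplant. Of the members 0 were called, against 0% of all genes. With no adjustment (p under 0.05), 2 were higher (Cyp51 and Ebp), against 2.82% of all genes, and 4 were lower (Fdps, Msmo1, Idi1 and Sc5d), against 1.68%; under quantile normalization these were 0 (2.94% of all genes) and 4 (2.11%). Fdps was at 13.4 ± 0.41 (SD, n = 3) against 21.2 ± 1.47 (-0.62, SE 0.16, adjusted p = 0.959 by limma), Msmo1 at 21.5 ± 3.18 against 30.0 ± 1.95 (-0.47, SE 0.15, adjusted p = 1.00) and Idi1 at 14.8 ± 4.13 against 32.4 ± 6.49 (-1.09, SE 0.37, adjusted p = 1.00). Clock gene sums did not overlap here either, at 168 to 241 in HFD+control-FMT and 129 to 159 in HFD. The difference had a median of -0.05 over the members and 0.01 over all genes. These 3 comparisons share the HFD libraries, so a chance low or high value there enters all of them. Side by side, Fdps had differences of -0.59, -0.59 and -0.62 in HFD+AOS, HFD+AOS-FMT and HFD+control-FMT, Msmo1 of -0.68, -0.53 and -0.47, and Cyp51 of 0.05, 0.48 and 0.33.

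**Figure D3:**
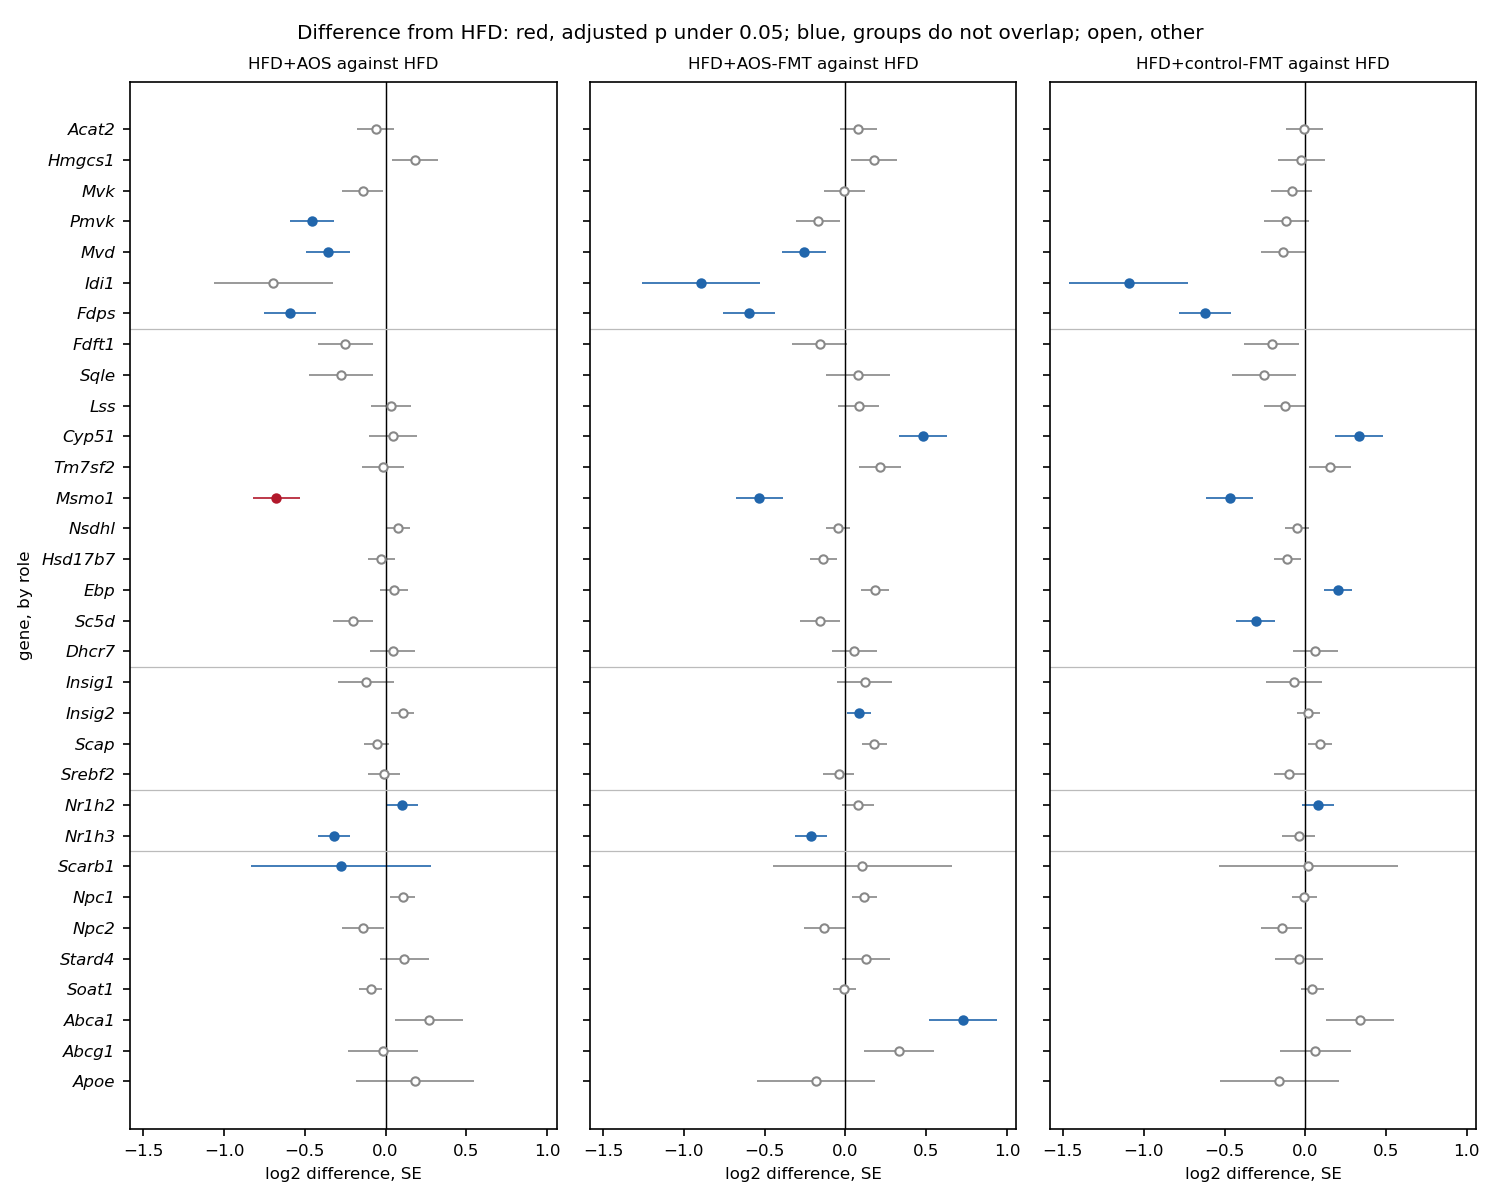
Difference in mean log2(signal + 1) from HFD (x axis, with SE) of the 32 members (y axis, in order of role) in HFD+AOS, HFD+AOS-FMT and HFD+control-FMT; red marks adjusted p under 0.05, blue marks groups that do not overlap and open points the rest. Msmo1 in HFD+AOS is the 1 red point, and Fdps and Msmo1 lie left of 0 in all 3 panels, which share the HFD libraries.

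The transplants were compared with each other as HFD+AOS-FMT against HFD+control-FMT. This called 0 members, against 0% of all genes, and at an unadjusted p under 0.05 there were 0 higher, against 4.26% of all genes, and 0 lower, against 2.76%. Among members without overlap, Abca1 was at 4.73 ± 0.35 against 3.37 ± 0.25 (SD, n = 3; difference 0.39, SE 0.21, adjusted p = 0.739 by limma), Nr1h3 differed by -0.17 (SE 0.10, adjusted p = 0.766) and Sqle by 0.34 (SE 0.20, adjusted p = 0.777). As a median, the difference was 0.06 over the members and 0.04 over all genes. The clock gene sums did not overlap, 282 to 331 against 168 to 241.

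HFD+AOS-FMT against control asks how far the transplant group stands from untreated kidney, and 5 members were called, against 2.32% of all genes. Cyp51 rose, from 73.9 ± 17.6 (SD, n = 3) to 116 ± 12.6 (difference 0.67, SE 0.15, adjusted p = 0.0330 by limma), and Ebp rose, from 47.8 ± 5.30 to 62.7 ± 4.74 (0.39, SE 0.088, adjusted p = 0.0349). Soat1 fell, from 6.21 ± 0.47 to 4.76 ± 0.36 (-0.32, SE 0.072, adjusted p = 0.0330), as did Fdps, from 23.0 ± 5.34 to 13.8 ± 2.10 (-0.68, SE 0.16, adjusted p = 0.0387), and Msmo1, from 31.9 ± 4.97 to 20.6 ± 3.75 (-0.61, SE 0.15, adjusted p = 0.0426). Before adjustment, at p under 0.05, 3 members were higher, against 6.41% of all genes, and 8 were lower, against 12.6%; under quantile normalization these were 5 (11.4% of all genes) and 8 (9.45%), and Scap was called higher in place of Soat1 lower, with 3.28% of all genes called. The median difference was -0.07 over the members and -0.06 over all genes; it was -0.02 and 0.01 under quantile normalization, and -0.01 and 0.02 without control replicate 3.

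These calls rest on few libraries. Without control replicate 3, Cyp51 (0.46, adjusted p = 0.0323) and Abca1 (0.73, adjusted p = 0.0162) were called, and Soat1 (-0.27, adjusted p = 0.0502), Ebp (0.30, 0.0542), Fdps (-0.51, 0.0699) and Msmo1 (-0.52, 0.0764) were not, with 4.36% of all genes called. Without HFD+AOS-FMT replicate 1 or replicate 3, 0 members were called, and without AOS replicate 3, any HFD replicate, HFD+AOS replicate 2 or HFD+control-FMT replicate 3, 3 were called. In these 8 fits 0.507% to 1.96% of all genes were called. With the term for germ cell transcripts, which all 3 control libraries and none of HFD+AOS-FMT carry, 0 were called, with 0.00831% of all genes. Differences were then 0.50 for Cyp51, 0.34 for Ebp, -0.36 for Soat1, -0.78 for Fdps and -0.76 for Msmo1, and adjusted p ran from 0.564 to 0.760; the comparison then passes through the HFD libraries on either side of that split. Abca1, called without control replicate 3, had a difference of 0.02 with the germ cell term and of 0.33 with both changes. The clock sums of 121 and 132 in control replicates 1 and 2 lie below those of HFD+AOS-FMT, and 339 in control replicate 3 above.

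**Figure D4:**
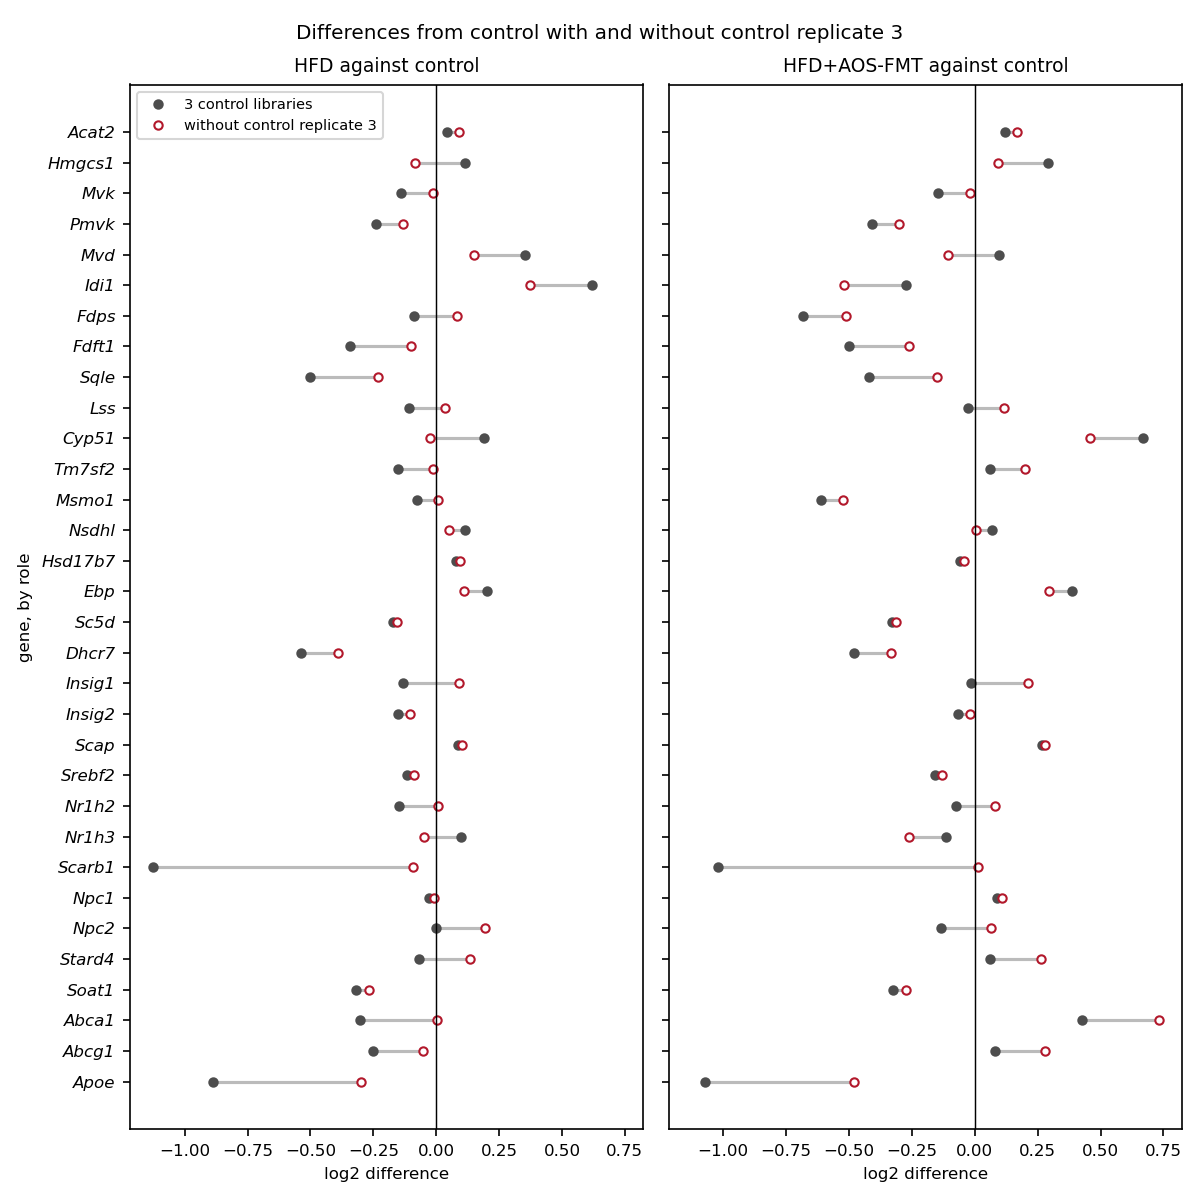
Difference in mean log2(signal + 1) from control (x axis) of the 32 members (y axis, in order of role) in HFD and in HFD+AOS-FMT, with 3 control libraries (filled) and without control replicate 3 (open). Scarb1 in HFD moves from -1.12 to -0.09, and in HFD+AOS-FMT Cyp51 moves from 0.67 to 0.46 and Abca1 from 0.42 to 0.73.

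HFD+AOS against AOS compares diets among mice given AOS, and uses the control libraries for the shared spread alone. It called 0 members, against 0% of all genes. At an unadjusted p under 0.05, 2 were higher (Npc1 and Hsd17b7), against 5.45% of all genes, and 7 were lower, against 5.63%; under quantile normalization these were 2 (7.02% of all genes) and 5 (5.18%). Leaving out control replicate 3 made them 4 (9.13%) and 9 (9.13%), with 0 members and 1.32% of all genes called. Of the 7 lower members 5 were mevalonate genes (Mvk, Pmvk, Mvd, Idi1 and Fdps), with Msmo1 and Soat1. Msmo1 differed by -0.40 (SE 0.15, adjusted p = 0.318 by limma), Npc1 by 0.20 (SE 0.077, adjusted p = 0.332) and Fdps by -0.41 (SE 0.16, adjusted p = 0.353). The difference had a median of -0.33 over the 7 mevalonate genes, -0.09 over the members and 0.00 over all genes.

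The difference between the AOS effect on HFD and the AOS effect on the control diet was tested as an interaction, and called 0 members, against 0% of all genes. With no adjustment (p under 0.05), 3 were higher (Insig2, Npc1 and Abca1), against 9.43% of all genes, and 2 were lower (Mvd and Idi1), against 2.96%; under quantile normalization these were 1 (5.24% of all genes) and 3 (4.84%). Mvd had -0.66 (SE 0.19, adjusted p = 0.344 by limma), Idi1 -1.43 (SE 0.52, adjusted p = 0.369) and Abca1 0.73 (SE 0.30, adjusted p = 0.390). The median was 0.06 over the members and 0.11 over all genes; it was -0.06 and 0.00 under quantile normalization, and -0.07 and 0.03 without control replicate 3, so its direction over the members turned. Members with a positive value went from 19 to 12 and 10. At an unadjusted p under 0.05 and without that library, 0 members were higher, against 5.75% of all genes, and 2 were lower, against 4.02%, and Abca1 was at 0.43. An AOS effect on Msmo1 that passed on HFD and not on the control diet (-0.35, adjusted p = 0.373) was not shown to differ between diets (-0.32, adjusted p = 0.485).

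An F test over the 6 groups called 0 members, against 1.02% of all genes, and 13 at an unadjusted p under 0.05, against 17.7%. Msmo1, Fdps and Soat1 came closest (adjusted p = 0.0509, 0.0559 and 0.0637 by limma). Without control replicate 3 the same test called 5, with 6.36% of all genes, and without control replicate 1 it called 2, with 0.625%. Without AOS replicate 2 or HFD+AOS-FMT replicate 2 it called 1, with 0.64% and 0.534% of all genes.

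Of 44 other genes of the pathway, 37 passed the filter on low values. In HFD+AOS against HFD, 1 of these rose and 0 fell, against 0.823% of all genes called. Vldlr, a receptor for triglyceride-rich lipoproteins, lay at 12.3, 11.5 and 12.6 in HFD and 16.1, 14.8 and 14.7 in HFD+AOS (difference 0.30, SE 0.060, adjusted p = 0.0348 by limma). Acss2, which makes acetyl-CoA from acetate, was at 151 ± 5.22 (SD, n = 3) in HFD+AOS and 115 ± 3.94 in HFD and did not pass (0.39, SE 0.089, adjusted p = 0.0561). In HFD+AOS-FMT against control, 1 of the 37 rose and 0 fell, a share near the 2.32% of all genes called there. Lbr, a sterol reductase of the nuclear envelope, lay at 6.22, 6.53 and 6.31 in control and 7.95, 9.04 and 8.66 in HFD+AOS-FMT (0.38, SE 0.083, adjusted p = 0.0330). The ER proteins Erlin2 (0.26, SE 0.068, adjusted p = 0.0593) and Erlin1 (0.38, SE 0.10, adjusted p = 0.0608) did not pass there. In each of the other 7 contrasts 0 of the 37 were called. Srebf1, the SREBP gene of fatty acid synthesis, lay at 11.0, 12.9 and 13.4 in HFD+AOS-FMT and 7.95, 7.33 and 7.96 in HFD+control-FMT without overlap (0.62, SE 0.13, adjusted p = 0.358).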

How the data were processed

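Messenger RNA was measured in 18 kidney libraries, 3 in each of 6 groups named by the labels. Bowtie 0.12.2 and the mm10 build are named in the submitters' processing notes. How reads were counted, with which annotation, strand setting and normalization, is not given in the sources used here. A single table of normalized signal, deposited by the authors, holds 1 value for each gene and library. The coefficient of variation of its column sums was 3.50%, or 0.586% once values were multiplied by transcript length, so the signal was treated as normalized for length and depth. Of low values of 119 genes, 74.1% lay within 0.1 of a whole multiple of a step, too few to recover reads, so no count test was run and no counting interval is given.

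The table had 19545 entries; 26 symbols turned into dates and 1 second entry were left out. Genes with a signal of at least 1 in 3 libraries (12031) were fitted as log2(signal + 1) in 1 model of 6 groups (residual degrees of freedom, 12) by limma 3.58.1 under R 4.3.3, using trended, robust moderation of the variance and two-sided tests. The model was also run on simulated data with independent normal noise. These held no outlying library and no germ cell split, so they do not test its fit to the present libraries. Benjamini-Hochberg adjustment ran over all genes within each of 9 contrasts and the F test, at a threshold of 0.05. Members, other lists and tests were chosen with earlier results of these data known. Members are given by library where they were called, were among the 3 with the smallest p whose groups did not overlap in a contrast, or had the highest mean of their role group. Coordinates are from GENCODE M21, and promoters from RefSeq. In all, 26 alternatives were run: normalization, pseudocount, filter, spread, groups in the fit, a replicate block, a germ cell term, and each library left out.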

Additional observations from a re-analysis of the deposited data

How the results depend on the processing

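Of the 29 named differences of members, 0 changed sign under any alternative run. Outside the interaction, the groups of each did not overlap, so leaving out 1 library could not turn their sign. Differences not picked in this way did turn. Without control replicate 3, Abca1 in HFD against control went from -0.30 to 0.002. With the germ cell term, Cyp51 in HFD+AOS against HFD went from 0.045 to -0.07. Medians also changed sign. The median of the interaction went from 0.06 over the members to -0.06 under quantile normalization and -0.07 without control replicate 3. That of HFD+AOS-FMT against HFD went from 0.07 to -0.01 under quantile normalization. Over all genes, HFD+AOS-FMT against control went from -0.06 to 0.01 under quantile normalization and 0.02 without control replicate 3, and under quantile normalization HFD against control went from -0.10 to 0.01, AOS against control from -0.09 to 0.01, HFD+AOS-FMT against HFD from 0.05 to -0.01 and HFD+control-FMT against HFD from 0.01 to -0.01. Of the counts of members called, 217 stayed within 1.5 times the reported count and 42 moved. The 217 include every count of the 6 contrasts that called 0 members throughout. Of the differences of named members, 672 kept their direction and side of the threshold, 74 no longer passed and 8 newly passed. The 74 could come only from the 1 difference called in HFD+AOS against HFD and the 5 called in HFD+AOS-FMT against control. Most of the 672 passed in neither fit. The germ cell term as planned could not be fitted, since Smcp put every library above its limit of 5; the term without Smcp, alone and together with leaving out control replicate 3, was chosen after the data were seen. In HFD+AOS against HFD, the 1 call became 0 with no filter on low values, with no trend and no robust estimation, with the replicate block, with the germ cell term, and with that term and without control replicate 3; it became 4 when the pair was fitted alone, and 0 to 5 when libraries were left out in turn. In HFD+AOS-FMT against HFD, the count of 0 became 3 for the pair alone and 0 to 4 with libraries left out. In HFD+AOS-FMT against control, the count of 5 became 0 with the replicate block, with the germ cell term, with that term and without control replicate 3, and for the pair alone, and 0 to 6 with libraries left out. The F test, at 0, gave 2 under quantile normalization, 1 with a pseudocount of 0.1, 1 with the germ cell term and without control replicate 3, and 0 to 5 with libraries left out. The cause of these moves was not tested. The other 6 contrasts called 0 members under every alternative run. Correlations showed no clear pairing by replicate number. Over 45 pairs of libraries with the same number, deviations from group means correlated at -0.16 to 0.26 (median -0.02), 5 of them over 0.1. Of 18 libraries, 5 correlated best with their own number. Each group mean rests on 3 libraries, so this cannot settle whether the numbers pair the samples. With 3 libraries a group and reads unknown, small differences of low genes such as Abcg1 are not detectable.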

Other observations

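The ratio of Cyp51 to Msmo1 within a library, chosen after the values had been seen and given without a test, was 2.62, 2.89 and 2.78 in HFD. It was 4.28, 4.62 and 5.06 in HFD+AOS, 6.53, 4.09 and 6.83 in HFD+AOS-FMT, and 3.96, 5.63 and 5.21 in HFD+control-FMT. In control it was 3.26, 2.44 and 1.503, and in AOS 2.99, 4.30 and 3.88. The highest control ratio was below every library given AOS or a transplant on HFD. The enzymes act in the same series of sterol steps, with a reductase step between them.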
